A study of Danio rerio with 14 samples.

Results

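The mitochondrial protein import genes were taken as every row of the deposited table whose gene name begins with timm, tomm, chchd or mtx followed by a digit, or with pam16 or samm50. This name rule gave 41 of 39289 rows, and all 41 passed the filter on low counts. The rule used no measured value, but it was chosen with earlier results of these data known.

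RNA was sequenced from pools of up to 7 ventricles of adult zebrafish (strain label TL1). The 14 libraries came from 4 genotypes. TMEM43-P111L (3 libraries), TMEM43-S358L (4 libraries) and TMEM43-WT (4 libraries) fish carried the p.P111L mutant, the p.S358L mutant or the wild-type form of human TMEM43, fused to eGFP and driven by the myl7 promoter, which is active in cardiomyocytes. TMEM43 is a nuclear envelope protein whose variants are linked to arrhythmogenic cardiomyopathy in humans. Non-transgenic fish (NTG, 3 libraries) served as controls. The lines were made by Tol2 transgenesis, and progeny of transgenic F2 in-crosses were analysed. A difference between a line and NTG therefore includes any effect of the insertion and of the eGFP fusion. The place and number of Tol2 insertions are random. The paper reports less transgene mRNA in ventricles of TMEM43-P111L and TMEM43-S358L than of TMEM43-WT. By Western blot, it reports less fusion protein in TMEM43-S358L than in TMEM43-WT and a similar level in TMEM43-P111L. In a difference between lines, the variant, the insertion and the transgene level therefore cannot be told apart. The study's text gives an age of 5 months. According to the sample titles, only 7 pools were of that age (1 TMEM43-P111L, 3 TMEM43-S358L, 1 TMEM43-WT and 2 NTG), and 7 pools were from fish aged 18 to 21 months (2 TMEM43-P111L, 1 TMEM43-S358L, 3 TMEM43-WT and 1 NTG), so age was spread unevenly over the genotypes.

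Nearly all mitochondrial proteins are encoded in the nucleus, made in the cytosol and imported. In yeast and mammals, precursors are recognised and passed through the outer membrane by the TOM complex, after which the SAM complex inserts beta-barrel proteins into the outer membrane, TIM23 with its motor takes precursors into the matrix, TIM22 inserts carrier proteins into the inner membrane, and small TIM chaperones escort hydrophobic precursors across the intermembrane space. CHCHD4 (MIA40 in yeast) traps small cysteine-rich proteins in the intermembrane space by oxidising them, and most other CHCHD proteins belong to that cysteine-rich class. Cardiomyocytes are rich in mitochondria and depend on them for contraction.

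Total reads per library ran from 20621770 to 32418475, and TMEM43-WT held both the lowest and the highest TMM scaling factor (0.8243 in replicate 1, 1.137 in replicate 6). No 2 libraries were identical. The summed level of the 8 ventricular cardiomyocyte markers was 75596 to 91698 CPM (reads scaled to library size by TMM) in TMEM43-P111L, 82183 to 101668 in TMEM43-S358L, 71890 to 90301 in TMEM43-WT and 84802 to 99835 in NTG, so the labelled tissue had its defining markers. The summed level of the 4 bulbus smooth muscle markers was 94.7 to 277 CPM in TMEM43-P111L, below the 412 to 589 CPM in NTG. That of the 7 leukocyte markers was 443 to 745 CPM in TMEM43-WT, above the 323 to 379 CPM in NTG. None of these markers was at 0 in every library, and the part of other cell types in the results was not tested. In pooled tissue, fewer cells of a type and less RNA per cell cannot be told apart. Endogenous tmem43 was at 5.91 to 14.6 CPM in TMEM43-P111L, 10.2 to 17.4 in TMEM43-S358L, 10.9 to 17.6 in TMEM43-WT and 11.7 to 18.7 in NTG. The human transgene was not analysed here.

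Per kilobase of exon, the mean level of the import genes over all libraries spanned from 0.194 CPM per kb for timm23b to 428 CPM per kb for chchd10. After chchd10, an intermembrane space protein linked to motor neuron and muscle disease in humans, the highest levels per length were those of chchd6b (286 CPM per kb), tomm5 (172 CPM per kb), tomm20b (171 CPM per kb) and chchd2 (168 CPM per kb). The values of tomm5, tomm20b and chchd2 differed by far less than their spread between libraries. For several import proteins with duplicated genes, 1 copy carried most of the reads. timm17a made up 99.2% to 99.8% of the per-length sum of timm17a and timm17b over the libraries, and timm23a 99.1% to 99.96% of that of timm23a and timm23b. Both encode channel-forming subunits of TIM23 in yeast and mammals. For chchd3, which encodes a subunit of the MICOS complex that shapes the cristae, chchd3a made up 96.3% to 98.6%. By contrast, samm50 and samm50l were shared at 61.0% to 71.0% for samm50.

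**Figure D1:**
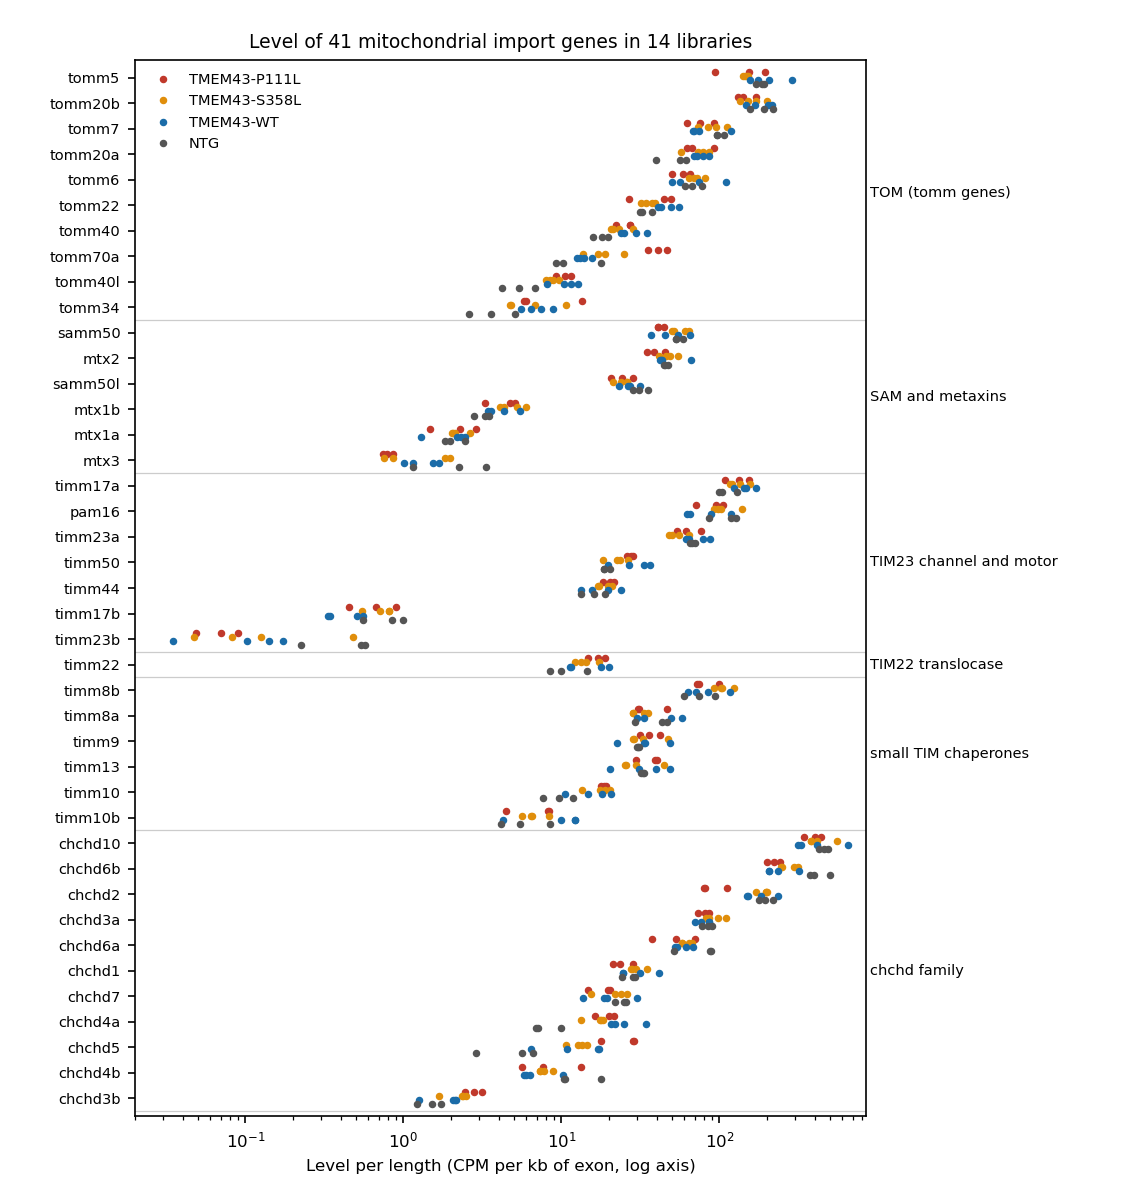
Level of each of the 41 import genes (CPM per kb of exon, log axis), with 1 point per library coloured by genotype and genes grouped by role. The levels span from timm23b at a mean of 0.194 to chchd10 at a mean of 428 CPM per kb.

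To ask how the import genes differed in each line, every gene was tested over all 17437 genes with enough reads (edgeR quasi-likelihood, Benjamini-Hochberg adjustment). Called genes had an adjusted p below 0.05 and differed by 0.05 or more on the log2 scale. In TMEM43-P111L against NTG, 5 import genes rose and 3 fell, which is 19.5% of the 41, beside 7.59% of all tested genes (3.34% higher and 4.25% lower). In TMEM43-WT against NTG, 4 rose and 1 fell (12.2%, beside 8.34% of all tested genes, 4.09% higher and 4.24% lower). In TMEM43-S358L against NTG, 3 rose and none fell (7.32%, near the 6.15% of all tested genes, 2.68% higher and 3.48% lower). The median log2 fold change of the 41 genes was -0.07 in TMEM43-P111L, 0.08 in TMEM43-S358L and 0.11 in TMEM43-WT, and that of all tested genes was 0.00, 0.00 and -0.01 in the same order. The 3 comparisons share the same NTG libraries. Of the calls, 4 in TMEM43-P111L, 2 in TMEM43-S358L and 3 in TMEM43-WT were among the 11 chchd genes. Most of these encode proteins of the cysteine-rich class and not parts of the import machinery, though the oxidoreductase gene chchd4a was called in each line. The shares above are therefore those of the name rule and not of the machinery alone. In all, 9 import genes were called in at least 1 comparison and 32 in none, and 2 genes, chchd4a and chchd5, were called in all 3 lines. The matching counts over all tested genes were not made, so these numbers have no background beside them.

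**Figure D2:**
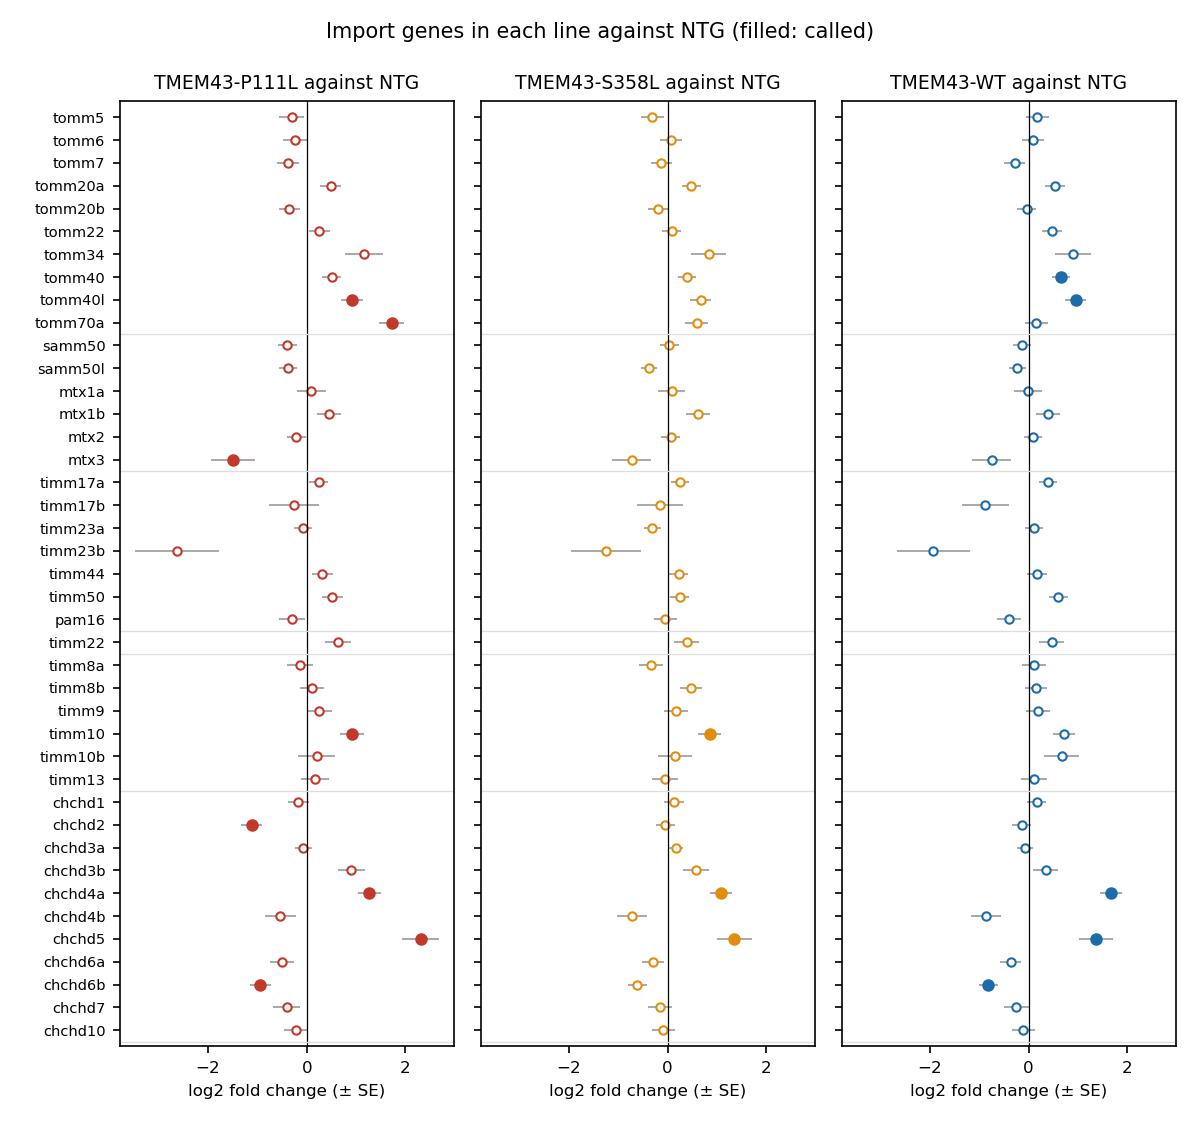
Log2 fold change of the 41 import genes in TMEM43-P111L, TMEM43-S358L and TMEM43-WT, each against NTG, with SE bars; filled points were called and genes are grouped by role. Filled points number 8 in TMEM43-P111L, 3 in TMEM43-S358L and 5 in TMEM43-WT, and most lie among the tomm and chchd genes.

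Among the 10 genes of the TOM complex and its partners, tomm70a stood apart in TMEM43-P111L. It encodes the receptor that in yeast and mammals docks cytosolic chaperones and takes up carrier precursors (gene ID 572969, chromosome 6, 28946050 to 28961628 on the minus strand of GRCz11). It was at 90.4, 68.3 and 79.2 CPM in TMEM43-P111L, 36.6, 33.2, 48.4 and 26.5 CPM in TMEM43-S358L, 25.5, 24.5, 26.9 and 30.2 CPM in TMEM43-WT, and 18.1, 34.4 and 19.8 CPM in NTG. Every TMEM43-P111L library was above every library of the other genotypes, with the 5-month-old pool the highest. The log2 fold change of TMEM43-P111L was 1.72 ± 0.257 (SE) against NTG (adjusted p = 0.00188), 1.57 ± 0.233 against TMEM43-WT (adjusted p = 0.00298) and 1.13 ± 0.232 against TMEM43-S358L (adjusted p = 0.0245). Against NTG, the log2 fold change was 0.59 in TMEM43-S358L (adjusted p = 0.15) and 0.16 in TMEM43-WT (adjusted p = 0.737). The calls against NTG and TMEM43-WT remained without any single library, with adjusted p up to 0.0101 and 0.0154. The call against TMEM43-S358L was lost without TMEM43-P111L replicate 2 (adjusted p = 0.091) or 4 (0.0989) and without TMEM43-S358L replicate 1 (0.059), 2 (0.086) or 4 (0.0702). With the replicate number as a block, the calls against TMEM43-WT and TMEM43-S358L were lost (adjusted p = 0.13 and 0.0745), and that against NTG was kept. None of the 18 other tested genes within 500000 bases of tomm70a was called in any of these 3 comparisons.

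The channel gene tomm40 and its paralog tomm40l were higher in TMEM43-WT than in NTG. For tomm40 (gene ID 322645, chromosome 16, 25672639 to 25680698, minus strand), the libraries were at 80.2, 80.0 and 65.8 CPM in TMEM43-P111L, 68.4, 61.1, 83.7 and 63.0 CPM in TMEM43-S358L, 103, 73.8, 87.8 and 70.6 CPM in TMEM43-WT, and 53.4, 46.6 and 58.7 CPM in NTG. All 11 transgenic libraries exceeded all 3 NTG libraries. In the test, tomm40 rose in TMEM43-WT by a log2 fold change of 0.66 ± 0.182 (SE, adjusted p = 0.0343), while the values of 0.51 in TMEM43-P111L (adjusted p = 0.115) and 0.38 in TMEM43-S358L (adjusted p = 0.219) did not pass. The call was lost without NTG replicate 2 (adjusted p = 0.0823) or 3 (0.127) and without TMEM43-WT replicate 1 (0.0683) or 5 (0.0815). It was also lost with no filter on low counts (0.0526), in a fit of only these 2 groups (0.0705) and without both libraries of lowest TMM factor, TMEM43-WT replicate 1 and TMEM43-S358L replicate 3 (0.0586).

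The paralog tomm40l (gene ID 405895, chromosome 19, 10831587 to 10841934, plus strand) was at 18.6, 16.9 and 14.7 CPM in TMEM43-P111L, 12.8, 15.4, 13.6 and 14.2 CPM in TMEM43-S358L, 16.6, 13.1, 20.3 and 18.5 CPM in TMEM43-WT, and 6.78, 8.71 and 11.0 CPM in NTG. Again no transgenic library overlapped with NTG. The log2 fold change was 0.92 ± 0.222 in TMEM43-P111L (adjusted p = 0.0203) and 0.96 ± 0.211 in TMEM43-WT (adjusted p = 0.0125), so that tomm40l rose in both, and the value in TMEM43-S358L was 0.67 (adjusted p = 0.0678). An antisense gene, si:dkey-3n22.9, overlaps tomm40l. It averaged 1.79 CPM and was called higher in TMEM43-WT than in NTG (log2 fold change 1.90, adjusted p = 0.04), and since the handling of strand in the counting is not stated, reads of the overlap cannot be told apart. The TMEM43-P111L call was lost without NTG replicate 2 (adjusted p = 0.0734) or 3 (0.0627) and without TMEM43-P111L replicate 2 (0.0646) or 3 (0.055), and in a fit of only these 2 groups (0.0782), and the TMEM43-WT call without NTG replicate 2 (0.0586).

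The other 7 tomm genes passed in no comparison. Their log2 fold changes against NTG ran from -0.38 for tomm7 in TMEM43-P111L to 1.16 for tomm34 in TMEM43-P111L (adjusted p = 0.0719). tomm34, which encodes a cytosolic chaperone cofactor rather than a pore subunit, was at 27.6, 11.7 and 12.1 CPM in TMEM43-P111L, 13.8, 9.57, 21.6 and 9.74 CPM in TMEM43-S358L, 17.9, 11.2, 15.1 and 13.1 CPM in TMEM43-WT, and 5.32, 7.31 and 10.3 CPM in NTG. Its highest values in TMEM43-P111L, TMEM43-S358L and TMEM43-WT were in 5-month-old pools and that in NTG in the 21-month-old pool. The 2 copies of the presequence receptor tomm20 were shared differently. tomm20a made up 32.2% to 35.2% of the per-length sum of tomm20a and tomm20b in TMEM43-P111L, 29.9% to 34.2% in TMEM43-S358L, 28.0% to 33% in TMEM43-WT and 20.4% to 22.9% in NTG. These shares did not overlap with NTG but were not tested, and tomm20a itself was not called in any line (log2 fold changes 0.49, 0.48 and 0.54 against NTG in TMEM43-P111L, TMEM43-S358L and TMEM43-WT). Over all 10 tomm genes, the median log2 fold change against NTG was 0.37 in TMEM43-P111L, 0.23 in TMEM43-S358L and 0.33 in TMEM43-WT.

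Of the 6 SAM and metaxin genes, 1 was called. mtx3 encodes a metaxin, an outer membrane protein of which other family members work with SAM in mammals (gene ID 402916, chromosome 5, 51885258 to 51903002, minus strand). It was at 2.14, 2.02 and 2.31 CPM in TMEM43-P111L, 5.36, 4.99, 2.33 and 2.03 CPM in TMEM43-S358L, 2.73, 4.55, 4.14 and 3.10 CPM in TMEM43-WT, and 3.12, 9.03 and 6.11 CPM in NTG. The TMEM43-P111L libraries were close together and below all NTG libraries, which were themselves spread widely. mtx3 fell by 1.49 ± 0.436 (SE) on the log2 scale in TMEM43-P111L against NTG (adjusted p = 0.0479). Among the import genes of the name rule, this was the call closest to the threshold. It was lost without NTG replicate 3 (adjusted p = 0.199) or 4 (0.0775), TMEM43-P111L replicate 2 (0.108), 3 (0.125) or 4 (0.119), TMEM43-S358L replicate 2 (0.0553), or TMEM43-WT replicate 4 (0.0562), 5 (0.0643) or 6 (0.0582), and with age group as a covariate (0.069), no filter on low counts (0.0504) or a fit of only these 2 groups (0.0877). samm50, which encodes the central subunit of SAM, was at 74.7 to 81.2 CPM in TMEM43-P111L, 92.4 to 117 CPM in TMEM43-S358L, 67.9 to 120 CPM in TMEM43-WT and 97.9 to 108 CPM in NTG, and passed no test.

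None of the 7 TIM23 channel and motor genes and not the single TIM22 gene was called. The smallest p in the TIM23 group belonged to timm23b (gene ID 100535463, chromosome 13, 3880693 to 3910425, plus strand), at 0.0794, 0.148 and 0.115 CPM in TMEM43-P111L, 0.206, 0.782, 0.135 and 0.0779 CPM in TMEM43-S358L, 0.0569, 0.282, 0.23 and 0.168 CPM in TMEM43-WT, and 0.367, 0.931 and 0.879 CPM in NTG. The TMEM43-P111L and TMEM43-WT libraries were below all NTG libraries, but the gene had only 1 to 21 reads per library. Its log2 fold change against NTG was -2.63 in TMEM43-P111L (adjusted p = 0.0687), -1.24 in TMEM43-S358L (adjusted p = 0.32) and -1.93 in TMEM43-WT (adjusted p = 0.116). Its abundant copy timm23a was at 83.7 to 119 CPM in TMEM43-P111L, 74.7 to 99.5 CPM in TMEM43-S358L, 95.8 to 135 CPM in TMEM43-WT and 101 to 109 CPM in NTG, with log2 fold changes of -0.08, -0.31 and 0.11. timm50, the receptor of TIM23, was at 51.4, 49.6 and 47.1 CPM in TMEM43-P111L, 40.9, 33.1, 47.4 and 42.4 CPM in TMEM43-S358L, 66.1, 35.4, 60.5 and 48.5 CPM in TMEM43-WT, and 33.6, 36.5 and 33.6 CPM in NTG (adjusted p = 0.15, 0.51 and 0.0701 against NTG). timm22 (gene ID 100537779, chromosome 5, 62989171 to 62994726, plus strand), the channel for carrier proteins, was at 16.8, 18.6 and 14.4 CPM in TMEM43-P111L, 17.1, 11.9, 14.0 and 13.0 CPM in TMEM43-S358L, 17.6, 11.2, 19.5 and 11.2 CPM in TMEM43-WT, and 8.25, 9.68 and 14.2 CPM in NTG. Its groups overlapped for TMEM43-S358L and TMEM43-WT, and its log2 fold changes of 0.63, 0.39 and 0.47 against NTG did not pass (adjusted p = 0.158, 0.38 and 0.257).

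Of the 6 small TIM chaperone genes, timm10 was called in both mutant lines. Its product forms a ring with TIM9 in yeast and mammals (gene ID 436951, chromosome 1, 44390456 to 44395246, plus strand). timm10 was at 30.6, 28.2 and 29.7 CPM in TMEM43-P111L, 32.4, 21.4, 28.1 and 30.3 CPM in TMEM43-S358L, 28.9, 16.9, 33 and 23.5 CPM in TMEM43-WT, and 12.3, 15.5 and 18.8 CPM in NTG. Only TMEM43-WT replicate 4 among the transgenic libraries lay within the NTG values. timm10 rose by a log2 fold change of 0.92 ± 0.243 in TMEM43-P111L (adjusted p = 0.031) and 0.85 ± 0.231 in TMEM43-S358L (adjusted p = 0.0399), and its value of 0.72 in TMEM43-WT did not pass (adjusted p = 0.0631). Its partner timm9 was at 20.6 to 27.7 CPM in TMEM43-P111L, 18.7 to 31.1 CPM in TMEM43-S358L, 14.8 to 32.2 CPM in TMEM43-WT and 19.7 to 20.4 CPM in NTG, with log2 fold changes of 0.26, 0.17 and 0.19, none of which passed. The timm10 call in TMEM43-P111L was lost without NTG replicate 2 (adjusted p = 0.101) or 3 (0.0839) or TMEM43-P111L replicate 2 (0.0737), 3 (0.0633) or 4 (0.0826), and in a fit of only these 2 groups (0.0546). That in TMEM43-S358L was lost without NTG replicate 2 (0.122) or 3 (0.112), TMEM43-P111L replicate 4 (0.0532) or TMEM43-S358L replicate 1 (0.0742), 3 (0.082) or 4 (0.0853), in a fit of only these 2 groups (0.0685), without both libraries of lowest TMM factor (0.0816) and in the 5-month-old libraries alone (0.136).

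The chchd family held the calls shared by all lines. chchd4a is a zebrafish copy of the gene for the oxidoreductase of the intermembrane space (gene ID 445144, chromosome 11, 34779606 to 34783938, minus strand). It was at 21.2, 19.7 and 16.1 CPM in TMEM43-P111L, 17.6, 13.1, 18.1 and 17.4 CPM in TMEM43-S358L, 33.7, 20.3, 24.5 and 21.5 CPM in TMEM43-WT, and 7.01, 6.80 and 9.75 CPM in NTG. Every transgenic library was above every NTG library. chchd4a rose by a log2 fold change of 1.27 ± 0.236 in TMEM43-P111L (adjusted p = 0.00624), 1.07 ± 0.224 in TMEM43-S358L (adjusted p = 0.0114) and 1.67 ± 0.228 in TMEM43-WT (adjusted p = 0.000814). Leaving out any single library kept the calls in TMEM43-P111L and TMEM43-WT, and the call in TMEM43-S358L was lost without NTG replicate 3 (adjusted p = 0.0546) and in the 5-month-old libraries alone (adjusted p = 0.0966, log2 fold change 1.24). With the replicate number as a block, the calls in TMEM43-S358L and TMEM43-WT were lost.

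The second copy, chchd4b (gene ID 450030, chromosome 6, 40060756 to 40063446, minus strand), was at 12.8, 7.38 and 5.37 CPM in TMEM43-P111L, 7, 8.45, 7.44 and 6.97 CPM in TMEM43-S358L, 9.78, 5.59, 6.08 and 5.71 CPM in TMEM43-WT, and 17.0, 10.1 and 9.92 CPM in NTG. It was not called (log2 fold changes -0.53, -0.72 and -0.86, adjusted p = 0.34, 0.164 and 0.0852). Per length, chchd4a made up 61.7% to 74.4% of the chchd4a and chchd4b sum in TMEM43-P111L, 60.2% to 70.9% in TMEM43-S358L, 77% to 79.6% in TMEM43-WT and 28.6% to 48.8% in NTG. So chchd4b was the more abundant copy in every NTG library and chchd4a in every transgenic library. In NTG replicate 4, the 21-month-old pool, the copies were nearly level (chchd4a at 48.8%). The share itself was not tested.

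chchd5 encodes a further twin-cysteine protein (gene ID 100000646, chromosome 3, 52895164 to 52899018, minus strand). It was at 13.7, 22.2 and 22.0 CPM in TMEM43-P111L, 11.3, 8.23, 9.86 and 10.4 CPM in TMEM43-S358L, 13.2, 4.98, 13.4 and 8.43 CPM in TMEM43-WT, and 4.35, 2.23 and 5.07 CPM in NTG. TMEM43-WT replicate 4 lay within the NTG values and all other transgenic libraries above them. The log2 fold change was 2.31 ± 0.370 in TMEM43-P111L (adjusted p = 0.0028), the largest rise among the import genes in the 3 comparisons with NTG, 1.35 ± 0.346 in TMEM43-S358L (adjusted p = 0.0311) and 1.36 ± 0.346 in TMEM43-WT (adjusted p = 0.0249). TMEM43-P111L did not pass against TMEM43-WT (log2 fold change 0.95, adjusted p = 0.247) or TMEM43-S358L (0.96, adjusted p = 0.255). The TMEM43-P111L call remained without any single library (adjusted p up to 0.0143). The TMEM43-S358L call was lost without NTG replicate 2 (0.0593) or 3 (0.124), or TMEM43-S358L replicate 1 (0.0536), 3 (0.0621) or 4 (0.0631), without both libraries of lowest TMM factor (0.0607), and in the 5-month-old libraries alone (0.117). The TMEM43-WT call was lost without NTG replicate 2 (0.0569) or 3 (0.1), or TMEM43-WT replicate 1 (0.0558) or 5 (0.0735), without both libraries of lowest TMM factor (0.0632), and in a fit of only these 2 groups (0.0676). Of the 17 other tested genes within 500000 bases, 1 was called in each line in the same direction, atp13a1. Over all tested genes, 3.34% were called higher in TMEM43-P111L, 2.68% in TMEM43-S358L and 4.09% in TMEM43-WT.

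chchd6b, 1 of the 2 zebrafish copies of a MICOS subunit gene, fell. It was the most abundant called import gene (gene ID 492522, chromosome 6, 1494817 to 1514804, minus strand), at 195, 218 and 236 CPM in TMEM43-P111L, 292, 241, 307 and 242 CPM in TMEM43-S358L, 311, 201, 230 and 200 CPM in TMEM43-WT, and 493, 386 and 364 CPM in NTG. All transgenic libraries were below all NTG libraries. The decrease was called at a log2 fold change of -0.94 ± 0.208 in TMEM43-P111L (adjusted p = 0.0141) and -0.82 ± 0.191 in TMEM43-WT (adjusted p = 0.0167), and the value in TMEM43-S358L was -0.62 (adjusted p = 0.0662). The TMEM43-P111L call was lost without NTG replicate 2 (0.0564) or TMEM43-P111L replicate 2 (0.0524), and the TMEM43-WT call without NTG replicate 2 (0.0814) and in a fit of only these 2 groups (0.0546). Of the 10 other tested genes within 500000 bases of chchd6b, 2 fell in TMEM43-P111L (tpra1 and myl9b) and 3 in TMEM43-WT (tpra1, acvr2ab and myl9b). Over all tested genes, 4.25% and 4.24% were called lower in these comparisons with NTG. The other copy, chchd6a, was at 46.2, 85.9 and 65.8 CPM in TMEM43-P111L, 83.1, 71.6, 79.5 and 71.8 CPM in TMEM43-S358L, 75.6, 66.6, 84.2 and 64.1 CPM in TMEM43-WT, and 109, 63.7 and 108 CPM in NTG. Its groups overlapped and it was not called.

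chchd2 fell in TMEM43-P111L only, and here the differences between the lines were themselves called. The gene encodes an intermembrane space protein linked to Parkinson's disease in humans (gene ID 393740, chromosome 15, 5773119 to 5780587, minus strand). It was at 101, 71.4 and 73.0 CPM in TMEM43-P111L, 177, 154, 177 and 181 CPM in TMEM43-S358L, 211, 136, 164 and 135 CPM in TMEM43-WT, and 197, 160 and 175 CPM in NTG. The TMEM43-P111L libraries were below all others. The log2 fold change of TMEM43-P111L was -1.12 ± 0.206 against NTG (adjusted p = 0.00608), -0.98 ± 0.196 against TMEM43-WT (adjusted p = 0.0224) and -1.07 ± 0.196 against TMEM43-S358L (adjusted p = 0.0124). Against NTG, the log2 fold change was -0.04 in TMEM43-S358L (adjusted p = 0.919) and -0.14 in TMEM43-WT (adjusted p = 0.706). The call against NTG remained without any single library (adjusted p up to 0.0355). That against TMEM43-WT was lost without TMEM43-P111L replicate 3 (0.129) or 4 (0.175) or TMEM43-WT replicate 5 (0.0673), in a fit of only these 2 groups (0.0784) and without both libraries of lowest TMM factor (0.0578), and that against TMEM43-S358L without TMEM43-P111L replicate 3 (0.0831) or 4 (0.0989). With the replicate number as a block, the calls against TMEM43-WT (0.231) and TMEM43-S358L (0.0547) were lost. Of the 10 other tested genes within 500000 bases, 3 also fell in TMEM43-P111L against NTG (phkg1a, rbp2a and sh3bgr). Against TMEM43-WT, 3 of the 10 were called, 2 of them lower, and against TMEM43-S358L 2 fell (phkg1a and sh3bgr). Over all tested genes, 4.25% were called lower against NTG, 0.562% against TMEM43-WT and 0.585% against TMEM43-S358L. Whether chchd2 and these neighbours changed together was not tested. The structurally related chchd10 was at 233 to 300 CPM in TMEM43-P111L, 258 to 377 CPM in TMEM43-S358L, 215 to 444 CPM in TMEM43-WT and 291 to 334 CPM in NTG, and was not called.

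**Figure D3:**
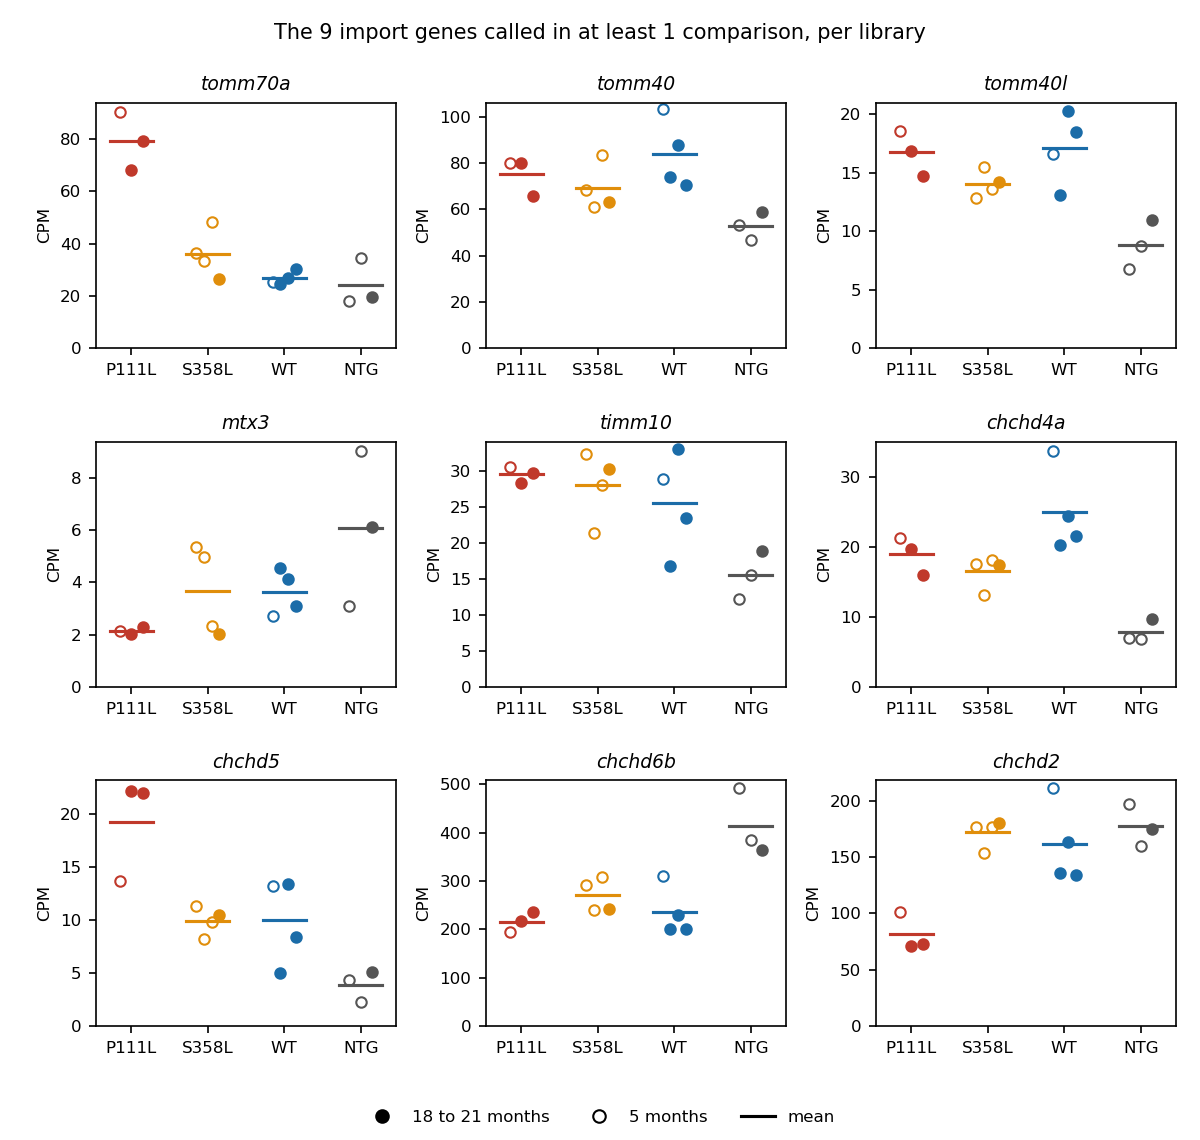
CPM of the 9 import genes called in at least 1 comparison, with 1 point per library (filled, 18 to 21 months; open, 5 months) and a line at the mean of each genotype; the axes start at 0. tomm70a is highest and chchd2 lowest in the 3 TMEM43-P111L libraries, and all transgenic libraries lie above NTG for chchd4a and below NTG for chchd6b.

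Between the lines, tomm70a (higher) and chchd2 (lower) were the only calls among the 41 import genes, both in TMEM43-P111L. That is 4.88% of the import genes against TMEM43-WT, beside 0.826% of all tested genes (0.264% higher and 0.562% lower), and 4.88% against TMEM43-S358L, beside 1.04% of all tested genes (0.459% higher and 0.585% lower). In TMEM43-S358L against TMEM43-WT, 0 import genes were called by edgeR and 0 by DESeq2, beside 1.62% of all tested genes with edgeR (0.66% higher and 0.958% lower). With edgeR, 4 import genes had an unadjusted p under 0.05 (9.76%, beside 12.4% of all tested genes). The smallest adjusted p there was 0.18, for chchd4a (log2 fold change -0.59), and the 41 log2 fold changes ran from -0.59 to 0.73. The summed bulbus smooth muscle markers also set TMEM43-P111L apart (94.7 to 277 CPM, beside 400 to 785 CPM in TMEM43-S358L and 538 to 916 CPM in TMEM43-WT). Their part in the calls of tomm70a and chchd2 was not tested. For both genes, the variant, the insertion and the transgene level of the line cannot be told apart.

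To ask whether age moved these genes, the 7 libraries labelled 18 to 21 months were set against the 7 labelled 5 months, with genotype as a covariate. No import gene was called by edgeR or DESeq2, beside 0.969% of all tested genes with edgeR (0.413% higher and 0.556% lower). An unadjusted p under 0.05 was found for 6 import genes (14.6%, beside 13.5% of all tested genes). The median log2 fold change of the import genes was -0.16, beside 0.00 for all tested genes, and 31 of 41 were below 0, including all 6 SAM and metaxin genes and 7 of 10 tomm genes. Without TMEM43-WT replicate 1 the median was -0.09, and it was -0.26 without NTG replicate 4. With the replicate number as a block it was 0.06, beside 0.05 for all tested genes. However, replicate number 3 is the only number with pools of both age groups (TMEM43-P111L older, TMEM43-S358L and NTG younger). Number and age are thus nearly the same division, and the blocked fit cannot decide whether the shift with age holds. That library, TMEM43-WT replicate 1, was a 5-month-old pool with the lowest TMM factor and the highest sum over the import genes, 3343 CPM, while the other libraries were at 2132 to 2815 CPM. Without scaling by TMM it was not the highest, at 0.275% of its reads beside 0.281% in NTG replicate 2. The lowest log2 fold change was that of chchd4b at -0.58 (adjusted p = 0.168), and the next was chchd7 at -0.49 (adjusted p = 0.164). chchd7 had a lowest, median and highest value of 8.87, 12.1 and 14.2 CPM in the older pools and 13.3, 16.2 and 19.4 CPM in the younger ones, so the age groups overlapped at their edges. chchd4b had 5.37, 6.08 and 9.92 CPM in the older pools and 7, 9.78 and 17.0 CPM in the younger ones.

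**Figure D4:**
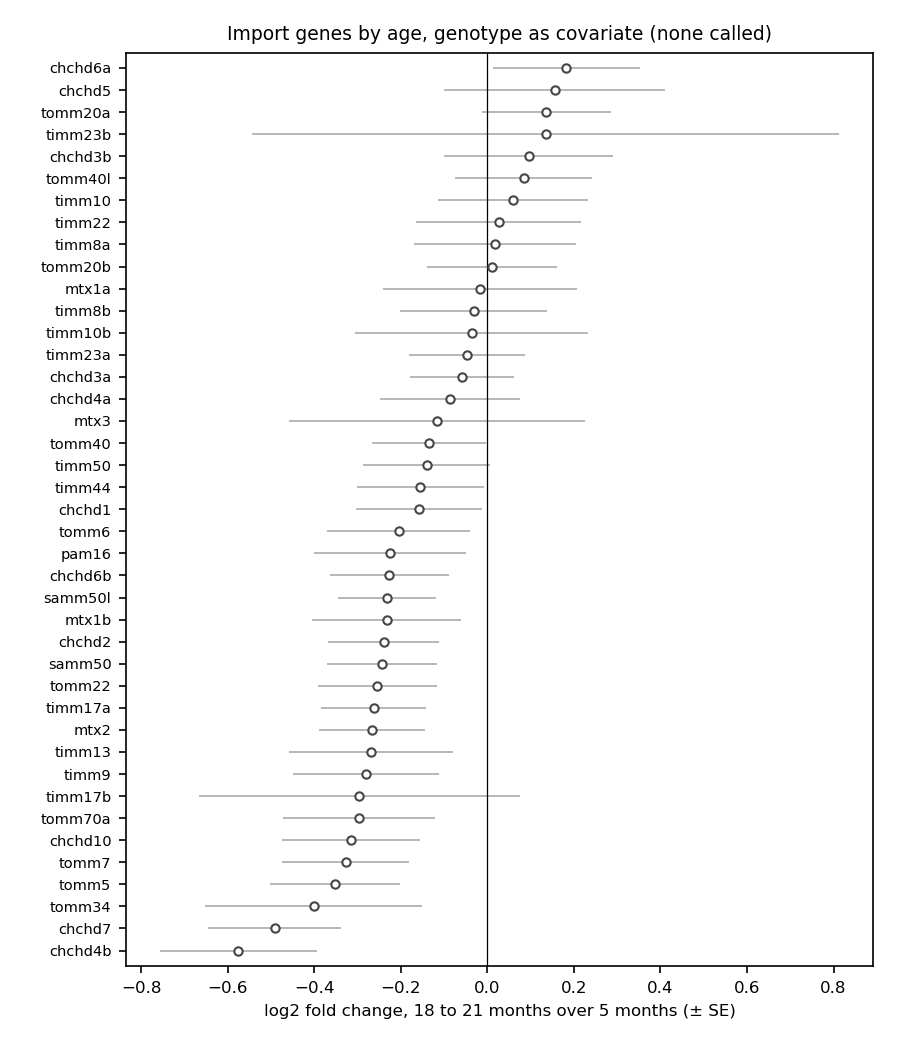
Log2 fold change of the 41 import genes between libraries labelled 18 to 21 months and those labelled 5 months, with genotype as a covariate and SE bars, ordered by value. No gene was called, and 31 of 41 lie below 0, from chchd4b at -0.58 to chchd6a at 0.18.

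Further genes of import, processing, inner membrane organisation and protein folding outside the name rule were counted from a list of 51 names, of which 41 were found. In this list 3 rose and none fell in TMEM43-P111L against NTG, 1 rose in TMEM43-S358L, and 1 rose and 2 fell in TMEM43-WT. These are 7.32%, 2.44% and 7.32% of the list, beside 7.59%, 6.15% and 8.34% of all tested genes in the same order, so none of these shares exceeded the background. lonp1, the main protease of the matrix, rose in all 3 lines. It was at 74.1 to 133 CPM in TMEM43-P111L, 61.6 to 116 CPM in TMEM43-S358L, 57.3 to 115 CPM in TMEM43-WT and 25.7 to 47.2 CPM in NTG, with log2 fold changes of 1.35 (adjusted p = 0.0199), 1.19 (adjusted p = 0.0327) and 1.1 (adjusted p = 0.0366). In TMEM43-P111L, pmpca, a subunit of the protease that cleaves presequences, rose by a log2 fold change of 0.79 (adjusted p = 0.0306), and grpel1, a cofactor of the matrix chaperone that pulls precursors in, by 0.86 (adjusted p = 0.049). In TMEM43-WT, apoob, a MICOS-related gene, fell by 1.32 on the log2 scale (adjusted p = 0.0362) and mterf3, a regulator of mitochondrial gene expression rather than an import gene, by 1.06 (adjusted p = 0.0277). With age, dnajc15, a co-chaperone gene of the import motor, fell by 0.54 on the log2 scale (adjusted p = 0.0418), and 36 of the 41 were below 0 (median -0.23). The calls in this list were not rechecked under the alternatives or without single libraries.

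For comparison, 101 nuclear genes of oxidative phosphorylation were tested. Called were 1 up and 3 down in TMEM43-P111L against NTG, 1 down in TMEM43-S358L and 1 down in TMEM43-WT, with medians of -0.34, -0.17 and -0.21. These calls are 3.96%, 0.99% and 0.99% of the 101 genes, below the 7.59%, 6.15% and 8.34% of all tested genes. Of the 74 mitochondrial ribosomal protein genes, 1 was called, higher in TMEM43-WT (1.35%, beside 8.34% of all tested genes), with medians of -0.03, -0.07 and 0.00. With age, 95 of the 101 and 70 of the 74 were below 0, with medians of -0.24 and -0.15, so values below 0 were not particular to the import genes.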

How the data were processed

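Reads (75 nt, single-end, stranded mRNA libraries) were trimmed by the authors with Cutadapt 2.5, aligned to GRCz11 with STAR 2.7.2b and counted per gene with featureCounts 1.6.4. The deposited values are expected counts, not scaled for depth or length. Part of them are fractions (20 of the 41 import genes), so reads were split between places or features, and how multi-mapping reads and strand were handled is not given in the sources used here. In the called import genes the fractions were at most 0.317% of the reads (mtx3). Counts were then rounded to whole numbers, and R 4.3.3 was used throughout.

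After filterByExpr by genotype, edgeR 4.0.16 (quasi-likelihood, robust, TMM) was fitted over all 14 libraries with genotype as the only factor, and for age (divided at 12 months) with genotype as a covariate. The study's methods used DESeq2, and DESeq2 1.42.0 served as an alternative. SE was the absolute log2 fold change divided by the square root of F. CPM per kb is CPM over the combined exon length in the deposited table.

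The members and lists were chosen with earlier results of these data known. Per-library values are given for each member called in at least 1 of 7 comparisons and for the member with the smallest p in each role without a call (timm23b, timm22). tomm34, timm50, chchd4b, chchd6a and the genes named beside them were chosen after their values were seen. Replicates are separate pools, and single fish were not measured. Alternatives were RLE factors, no filter, 1 CPM in 3 libraries, a log2 fold change of at least 0.5, whole counts only (within 1e-09), age group as a covariate or genotype left out, a replicate block, only the 2 groups compared, 5-month-old libraries only, leaving out each library and, chosen after seeing the data, a fit without the 2 lowest TMM factors (TMEM43-WT replicate 1 and TMEM43-S358L replicate 3). Sequences were not used here. Called neighbours within 500000 bases were also counted for the remaining called genes against NTG. These counts take calls in either direction, so not all of these neighbours changed the same way as the gene. In TMEM43-P111L they were 0 of 9 for chchd4a, 4 of 26 for timm10 and 1 of 22 for tomm40l. For mtx3 they were 1 of 14, beside 7.59% of all tested genes. In TMEM43-S358L they were 2 of 9 for chchd4a and 2 of 26 for timm10 (6.15%). In TMEM43-WT they were 1 of 9 for chchd4a, 3 of 29 for tomm40 and 2 of 22 for tomm40l (8.34%).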

Additional observations from a re-analysis of the deposited data

Results flagged for a closer look

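The difference between lines was itself called for tomm70a in TMEM43-P111L against TMEM43-WT (log2 fold change 1.57) and against TMEM43-S358L (1.13), and for chchd2 in TMEM43-P111L against TMEM43-WT (-0.98) and against TMEM43-S358L (-1.07). All 3 TMEM43-P111L libraries were above the other 11 for tomm70a and below them for chchd2.

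TMEM43-S358L replicate 2 was below the other 3 libraries of its group for chchd2 (154 CPM beside 177 to 181 CPM, a gap of 0.859 of the group's range). The same held for chchd4a (13.1 CPM beside 17.4 to 18.1 CPM, a gap of 0.866). Both gaps were past the 95% limit of Dixon's test for groups of 4, where the other libraries lay close together. In all, 22 sets of 4 libraries were examined, and chance flags about 1 in 20.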

How the results depend on the processing

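No call of an import gene changed direction under any alternative. Of 20 calls, 4 were kept under every alternative run for them and without any single library: tomm70a, chchd2, chchd4a and chchd5 in TMEM43-P111L against NTG. The fit of 5-month-old libraries alone was run only for TMEM43-S358L against NTG, so these 4 calls did not face it. TMEM43-P111L and TMEM43-WT have 1 such pool each. The number of import genes called moved by more than 1.5 times, or to the other side of the threshold, as follows. The count over all genes is given beside each, except where 1 library was left out at a time. DESeq2 called 5 in TMEM43-S358L against NTG (1940 of all genes, against 1073 with edgeR). Whole counts only left 21 import genes to test. Against NTG, 3 of these were called in TMEM43-P111L (624 of all genes), 0 in TMEM43-S358L (421) and 1 in TMEM43-WT (593). In TMEM43-P111L, 1 was called against TMEM43-WT (60) and 1 against TMEM43-S358L (61). Of the import genes called in the main fit, only chchd2 and tomm40l had no fractions. The others, among them tomm70a and every gene called in TMEM43-S358L, were not in that test, so the lower counts do not show that their calls failed. The number of all genes tested there is not given, so these counts have no share beside them. A fit of only the 2 groups compared called 5 in TMEM43-P111L (540 of all genes) and 2 in TMEM43-WT (995) against NTG, and 1 in TMEM43-P111L against TMEM43-WT (169). The 5-month-old libraries alone called 0 in TMEM43-S358L against NTG (93 of all genes). Without the 2 libraries with the lowest TMM, 3 were called in TMEM43-WT against NTG (1164 of all genes) and 1 in TMEM43-P111L against TMEM43-WT (117). Leaving out 1 library at a time gave 4 to 10 calls in TMEM43-P111L, 1 to 4 in TMEM43-S358L and 1 to 7 in TMEM43-WT against NTG, 1 to 2 in TMEM43-P111L against TMEM43-WT, 0 to 2 in TMEM43-P111L against TMEM43-S358L, and 0 in TMEM43-S358L against TMEM43-WT and by age.

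The lines share replicate numbers, but nothing in the labels says that a number marks a shared batch. Of 13 same-numbered pairs of libraries, 4 had deviations from their group means that correlated above 0.1 (r from -0.228 to 0.264). By number, r was 0.264 for number 1, -0.0427 to 0.0633 for 2, -0.228 to -0.0968 for 3 and 0.0141 to 0.152 for 4. Of these numbers, only 3 holds both age groups, so a shared number and a shared age cannot be told apart. The numbers were not taken to pair the samples. With the replicate block, 6 import genes were called in TMEM43-P111L (658 of all genes), 0 in TMEM43-S358L (432) and 0 in TMEM43-WT (26) against NTG. In TMEM43-P111L, 0 were called against TMEM43-WT (13 of all genes) and 0 against TMEM43-S358L (71). So calls were lost over all genes and not only among the import genes. TMEM43-WT shares only replicate number 4 with NTG and with TMEM43-P111L, and its numbers 5 and 6 occur in no other group. With so few matched libraries, the blocked fit cannot decide whether the TMEM43-WT calls hold. TMEM43-S358L shares numbers 2, 3 and 4 with NTG and with TMEM43-P111L, and the calls in those comparisons were lost too. In TMEM43-P111L against NTG the calls lost with the block were tomm40l (adjusted p = 0.0624) and mtx3 (0.134).

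The depth limits the 2 rarest import genes, timm23b with 1 to 21 reads per library and timm17b with 6 to 18. The comparisons of genotypes did not adjust for age, except in the alternative with age group as a covariate. It called 7 import genes in TMEM43-P111L, 4 in TMEM43-S358L and 5 in TMEM43-WT against NTG. The count over all genes is not given beside these, so they are not set against a background.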
